A study of Rattus norvegicus with 12 samples.

Results

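The expression of 8 matricellular and provisional matrix genes was followed in Tumor cells against A16 cells: Fn1, Sparc, Tnc, Thbs2, Postn, Vcan, Has2 and Ecm1. A probe set was taken as theirs when the array annotation gave it only that gene's symbol, which chose 13 probe sets of the 31042 tested and 8 genes of 14217. F111 is a rat fibroblast line. Tumor cells were cultured from explants of subcutaneous tumours taken 3 months after F111 cells, kept in suspension for 16 h beforehand, had been injected into nude mice. A16 cells were the same line after 16 h of adhesion to plastic, with no time in suspension and no passage through an animal. By the methods, explant cells were collected after a week in culture, so that time since plating also differs between the groups. No transgene or drug was named for either group, the stated age of the host mice differs between passages of the study's text, and host mouse cells may have come along with the explants. Medium and serum were alike for all cells by the labels, but explants received more serum by the methods, so that serum may differ between the groups. Each group had 3 arrays, which were biological replicate 1, a technical replicate 2 that was averaged with it, and biological replicate 2, so that n = 2 per group.

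Matricellular proteins are secreted into the extracellular matrix, where they act on cell adhesion and signalling rather than as fibres. The provisional matrix is the loose network of fibronectin, hyaluronan and versican that cells lay down during development, in wounds and in tumour stroma. Fibroblasts are a main source of both, and cells sense these proteins through integrins, syndecans and CD44.

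Correlations over all probe sets lay between 0.991 and 0.997 within groups and between 0.933 and 0.949 across them. Vim, a fibroblast intermediate filament gene, had a mean log2 intensity of 14.19 in Tumor cells and 14.29 in A16 cells. These levels lay near the top of both groups. Vim is among 14 fibroblast markers, of which 4 were called lower in Tumor cells and 10 were not called. The labelling controls followed the groups. Beta-actin probe sets for the 3′ end exceeded those for the 5′ end by 2.25 to 2.37 log2 units on Tumor arrays, against 0.64 to 0.71 on A16 arrays. For Gapdh the same measure differed less between the groups, with 0.25 to 0.33 on Tumor arrays and -0.05 to 0.003 on A16 arrays. The spiked poly-A controls averaged 4.82 to 4.92 on Tumor arrays, against 7.51 to 7.99 on A16 arrays. Labelling and group cannot be told apart in these arrays, and the part of labelling in the results was not tested.

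By the RMA summary, expression of 1 member rose in Tumor cells (Vcan), 3 fell (Fn1, Sparc and Tnc), and 4 were not called at an adjusted p under 0.05 with at least a 2-fold change in limma (Thbs2, Postn, Has2 and Ecm1). Over all genes by their brightest probe set, 10.9% were called in either direction, 5.45% higher and 5.44% lower in Tumor cells. Without the limit on fold, 6 of the 8 members passed the adjusted p, against 34.0% of all genes. The arrays of the groups did not overlap for the same 6 members, which was also so for 55.9% of all genes. The median log2 difference of the members was -0.02, and that of all genes was 0.03. RNA from a culture does not tell fewer cells of one type apart from less RNA per cell.

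**Figure D1:**
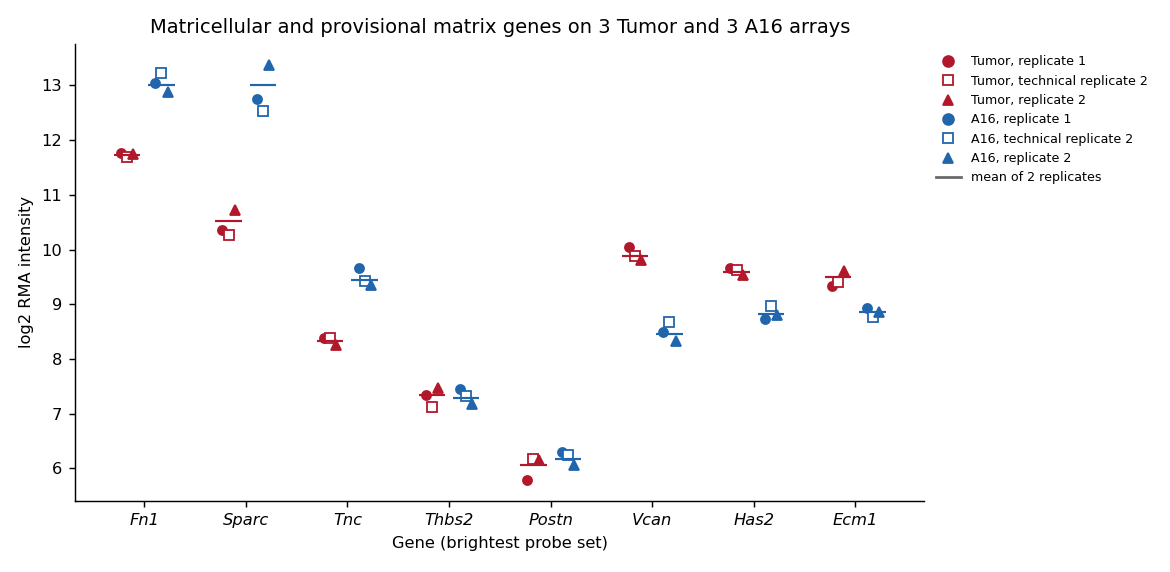
Expression of each member (horizontal axis, brightest probe set) as log2 RMA intensity (vertical axis) on the 3 Tumor arrays (red, left) and the 3 A16 arrays (blue, right), with bars at the mean of 2 replicates. Fn1, Sparc and Tnc lie lower on all 3 Tumor arrays, Vcan, Has2 and Ecm1 lie higher, and Thbs2 and Postn overlap; levels cannot be compared between genes.

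A window of sequence around the transcription start, from 250 bases before it to 50 after, is shown for each member that was called and had one in the RefSeq table of the GRCr8 assembly. These are Sparc and Tnc, which fell, and Vcan, which rose, and the 3 windows shown lie on the minus strand. Vcan had 2 windows that overlap, of which the first is shown. Capitals mark matches to the 4 motifs searched on both strands, none of which overlapped another. The motifs were TATAAA (a form of the TATA box), TGANTCA (AP-1), GGAATG (TEAD) and CAGACA (SMAD). Only the exact letters TATAAA were searched for the TATA box, so that its other forms stay in lower case.
Sparc, chr10:40038767-40039066: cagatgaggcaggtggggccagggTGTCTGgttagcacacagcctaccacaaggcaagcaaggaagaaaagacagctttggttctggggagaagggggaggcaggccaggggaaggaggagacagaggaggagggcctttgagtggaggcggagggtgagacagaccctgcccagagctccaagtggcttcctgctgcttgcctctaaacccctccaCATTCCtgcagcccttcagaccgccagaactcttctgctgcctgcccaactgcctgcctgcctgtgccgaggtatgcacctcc
Tnc, chr5:82476082-82476381: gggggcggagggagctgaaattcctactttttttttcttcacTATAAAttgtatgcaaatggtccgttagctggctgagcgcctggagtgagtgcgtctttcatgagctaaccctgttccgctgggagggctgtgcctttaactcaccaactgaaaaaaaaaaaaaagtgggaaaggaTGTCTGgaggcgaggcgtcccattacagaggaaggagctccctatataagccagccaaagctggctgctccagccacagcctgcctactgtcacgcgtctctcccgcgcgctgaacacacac
Vcan, chr2:22595906-22596205: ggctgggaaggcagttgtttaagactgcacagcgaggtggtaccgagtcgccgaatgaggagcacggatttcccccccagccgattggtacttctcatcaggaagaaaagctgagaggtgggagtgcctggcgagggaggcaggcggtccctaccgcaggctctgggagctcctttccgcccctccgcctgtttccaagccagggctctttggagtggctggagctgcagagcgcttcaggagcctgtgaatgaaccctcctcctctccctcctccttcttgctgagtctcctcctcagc
The Sparc window held a TEAD match at position -33 from the start and a SMAD match at -226, both on the opposite strand. The Tnc window held a TATAAA match at -208 on the gene's own strand and a SMAD match at -72 on the opposite strand. Nearer the transcription start, the Tnc window also held the letters tatataa, which the search did not cover. Neither Vcan window held any of the 4 motifs. Among the members not called, the Postn window held TATAAA at -44, and the Ecm1 window held TATAAA at -42, an AP-1 match at -83 and a SMAD match at -243. Of all 33469 windows, 14.2% held TATAAA, 7.33% the AP-1 motif, 14.2% the TEAD motif and 21.1% the SMAD motif. The share of G and C was 61% in the Sparc window, 52.3% in the Tnc window and 61% in the Vcan window shown (60% in the other), against a median of 51.7% over all windows. A match describes the letters only, and windows for Fn1, Thbs2 and Has2 are not shown.

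Fn1 encodes fibronectin, the adhesive glycoprotein on which other matrix proteins assemble, and lies on chromosome 9. Its only probe set (1370234_at) gave log2 RMA values of 11.76, 11.69 and 11.75 on the Tumor arrays (replicate 1, technical replicate 2 and replicate 2), against 13.04, 13.22 and 12.89 on the A16 arrays. All 3 Tumor arrays lay below all 3 A16 arrays, and they lay within 0.1 log2 units of each other. The log2 difference was -1.27 ± 0.13 (moderated SE, n = 2 per group), a 2.42-fold lower level in Tumor cells (adjusted p = 0.000665, limma).

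Sparc encodes osteonectin, a calcium-binding glycoprotein that binds collagen and loosens cell adhesion, and lies on chromosome 10. The brighter of its 2 probe sets (1367563_at) read 10.35, 10.26 and 10.72 on the Tumor arrays, against 12.75, 12.54 and 13.38 on the A16 arrays. Replicate 2 was the highest array of each group, and the groups did not overlap. The log2 difference was -2.50 ± 0.26, or 5.65-fold lower in Tumor cells (adjusted p = 0.000768, limma), the largest among the members' brightest probe sets. Leaving out each replicate in turn gave values between -2.86 and -2.13. The other probe set (1367562_at) read 9.68, 9.99 and 10.33 on the Tumor arrays, against 12.54, 12.56 and 13.80 on the A16 arrays. It was 8.50-fold lower in Tumor cells, with a log2 difference of -3.09 ± 0.39 (adjusted p = 0.00169, limma). On this probe set A16 replicate 2 stood more than 1 log2 unit above the other A16 arrays, and the groups did not overlap.

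Over the 6 arrays, each centred on the gene's own mean, 3 genes of the 14209 searched lay nearest to Sparc in Euclidean distance. They were Pik3r3, a regulatory subunit of phosphoinositide 3-kinase (distance 0.26 log2 units), Serpinh1, the collagen chaperone HSP47 (0.381), and Rnf213, a ubiquitin ligase (0.465). Pik3r3 read 6.80, 6.76 and 7.19 on the Tumor arrays, against 9.07, 8.77 and 9.64 on the A16 arrays, a log2 difference of -2.29. Serpinh1 differed by -2.23 and Rnf213 by -2.51. The genes were chosen for their likeness to Sparc on these same arrays, so that their lower levels in Tumor cells and their high A16 replicate 2 follow from the choice and are given as a description, with no test.

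Tnc encodes tenascin-C, a large matricellular glycoprotein of wounds and tumour stroma that interferes with adhesion to fibronectin, and lies on chromosome 5. It read 8.39, 8.38 and 8.26 on the Tumor arrays, against 9.66, 9.43 and 9.34 on the A16 arrays (1373401_at). The Tumor arrays all lay below the A16 arrays, by at least 0.9 log2 units. The difference was -1.13 ± 0.13 on the log2 scale, 2.18-fold lower in Tumor cells (adjusted p = 0.00105, limma).

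Thbs2 encodes thrombospondin-2, an inhibitor of blood vessel growth, and lies on chromosome 1. Its RMA values (1385751_at) were 7.34, 7.12 and 7.46 on the Tumor arrays, against 7.45, 7.32 and 7.17 on the A16 arrays. The groups overlapped, and the log2 difference was 0.07 ± 0.14 (adjusted p = 0.769, limma), with a 95% interval from -0.26 to 0.40. The PLIER summary of the same arrays differed. PLIER values were 7.10, 7.10 and 7.13 on the Tumor arrays, against 5.29, 5.44 and 5.31 on the A16 arrays, with no overlap. By PLIER Thbs2 was 3.44-fold higher in Tumor cells, with a log2 difference of 1.78 ± 0.13 (adjusted p = 0.000241, limma).

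Postn encodes periostin, a matricellular protein of periosteum and wounds that binds integrins, and lies on chromosome 2. Its RMA values (1373911_at) were 5.79, 6.17 and 6.15 on the Tumor arrays, against 6.31, 6.24 and 6.05 on the A16 arrays. These overlapped, with a log2 difference of -0.10 ± 0.13 (adjusted p = 0.627, limma) and a 95% interval from -0.42 to 0.22. By PLIER the values were 7.45, 7.28 and 7.25 on the Tumor arrays, against 5.91, 5.80 and 5.91 on the A16 arrays. The PLIER arrays did not overlap, and Postn was 2.68-fold higher in Tumor cells (log2 difference 1.42 ± 0.13, adjusted p = 0.00064, limma).

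The PLIER summary thus called 3 members higher (Vcan, Thbs2 and Postn) and the same 3 lower, where 13.9% of all genes were called by PLIER in either direction. The median log2 difference of the members was 0.84 by PLIER, against -0.02 by RMA, and that of all genes was 0.06 by PLIER. For each of the other 6 members the direction and the call were the same under both summaries. Over all probe sets, 11.9% were called by RMA, 3484 by both summaries in the same direction, 1212 by PLIER only, 210 by RMA only and 0 in opposite directions. The log2 differences of the summaries lay more than 1 apart for 1.53% of probe sets, among them those of Thbs2 and Postn. The PLIER calls included 107 probe sets that were higher in Tumor cells with an RMA difference under 0.2 log2 units in size. Which summary is nearer the RNA level was not tested.

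**Figure D2:**
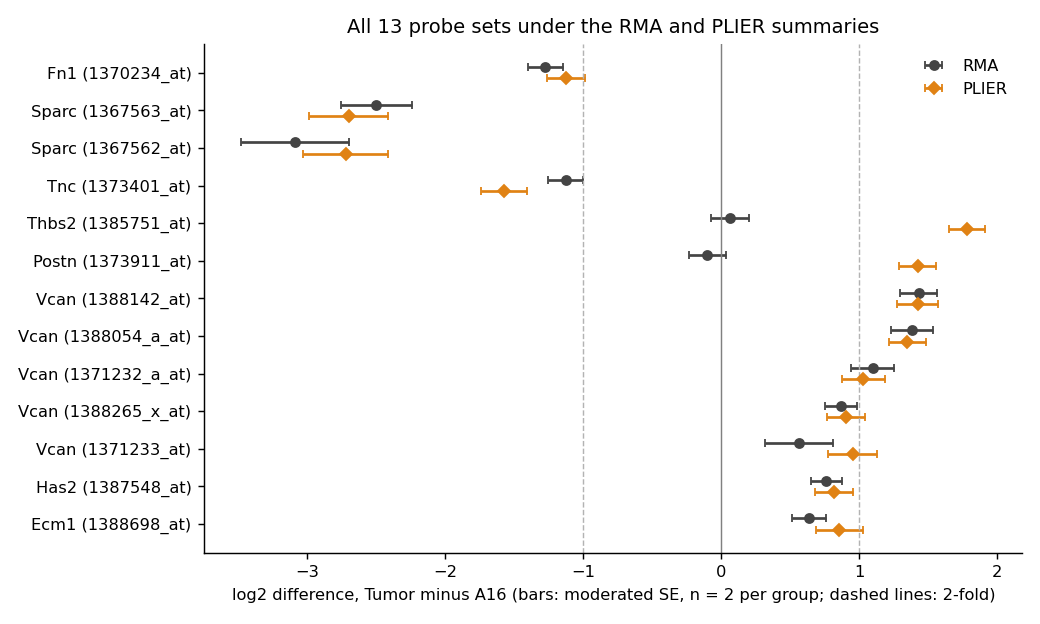
Log2 difference, Tumor minus A16 (horizontal axis), of all 13 probe sets by RMA (grey circles) and PLIER (orange diamonds), with bars of 1 moderated SE and dashed lines at a 2-fold change. The summaries part for Thbs2 (0.07 by RMA and 1.78 by PLIER) and Postn (-0.10 by RMA and 1.42 by PLIER), and lie within 0.5 of each other for the other 11 probe sets.

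Vcan encodes versican, the large chondroitin sulphate proteoglycan that binds hyaluronan, and lies on chromosome 2. Its brightest probe set (1388142_at) read 10.04, 9.89 and 9.81 on the Tumor arrays, against 8.49, 8.68 and 8.33 on the A16 arrays. Each Tumor array lay above each A16 array, and the log2 difference was 1.43 ± 0.14, or 2.70-fold higher in Tumor cells (adjusted p = 0.000559, limma). Vcan had 5 probe sets, which share a gene and are not replicates of one another. The probe set 1388054_a_at read 9.64, 9.48 and 9.46 on the Tumor arrays, against 8.35, 8.27 and 7.94 on the A16 arrays, a log2 difference of 1.38 ± 0.15 (adjusted p = 0.00096, limma). The third, 1371232_a_at, differed by 1.10 ± 0.16 and was also called higher (adjusted p = 0.00279, limma). It was under the 2-fold limit without A16 replicate 2 (0.90) and with technical replicate 2 averaged with biological replicate 2 (0.97).

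The 2 dimmer Vcan probe sets were not called by RMA or by PLIER. With an offset of 1 in PLIER both were called higher (1.01 for 1388265_x_at and 2.83 for 1371233_at). The probe set 1388265_x_at, of a design type that can also match other transcripts, passed the adjusted p at 1.83-fold, under the 2-fold limit (log2 difference 0.87 ± 0.11, adjusted p = 0.00191, limma). The probe set 1371233_at read 5.64, 5.24 and 4.66 on the Tumor arrays, against 4.45, 4.57 and 4.47 on the A16 arrays. Its mean lay at percentile 14.0 of all probe sets, the Tumor arrays spread over about 1 log2 unit, and the difference of 0.56 ± 0.24 did not pass (adjusted p = 0.133, limma). That difference was 0.17 without Tumor replicate 1 and 0.95 without Tumor replicate 2 (adjusted p = 0.0125, limma). It also passed the adjusted p, at under 2-fold, with technical replicate 2 averaged with biological replicate 2 (0.81, adjusted p = 0.00854, limma) or counted as a sample of its own (0.69, adjusted p = 0.0245, limma), and with the replicate number as a block (0.56, adjusted p = 0.0306, limma). By PLIER the difference of 1371233_at was 0.95 and passed the adjusted p at under 2-fold (adjusted p = 0.00774, limma). All 5 probe sets had every Tumor array above every A16 array, by RMA and by PLIER.

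**Figure D3:**
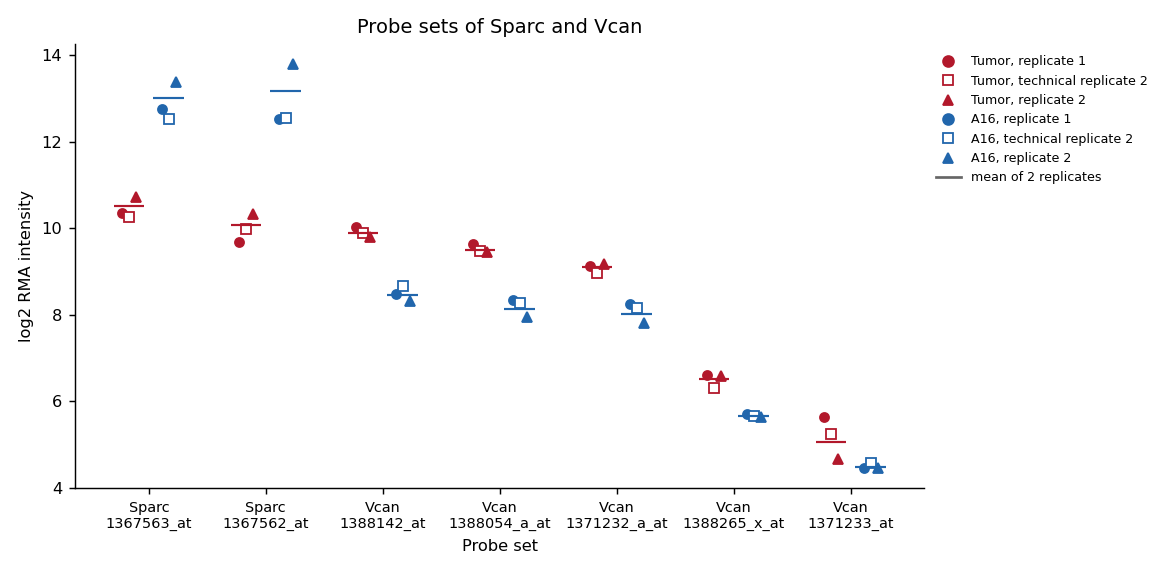
Log2 RMA intensity (vertical axis) of the 2 Sparc and 5 Vcan probe sets (horizontal axis) on the 3 Tumor arrays (red, left) and the 3 A16 arrays (blue, right), with bars at the mean of 2 replicates. Both Sparc probe sets lie lower on the Tumor arrays (log2 differences -2.50 and -3.09) and all 5 Vcan probe sets lie higher (0.56 to 1.43).

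Has2 encodes hyaluronan synthase 2, which makes the hyaluronan chain that versican binds, and lies on chromosome 7. It read 9.66, 9.62 and 9.53 on the Tumor arrays, against 8.72, 8.97 and 8.80 on the A16 arrays (1387548_at), and the groups did not overlap. The log2 difference was 0.76 ± 0.11, a 1.69-fold change that passed the adjusted p (0.00305, limma) and not the 2-fold limit. By PLIER it was 0.82.

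Ecm1 encodes extracellular matrix protein 1, a secreted glycoprotein that binds perlecan and other matrix proteins, and lies on chromosome 2. It read 9.34, 9.41 and 9.60 on the Tumor arrays, against 8.93, 8.77 and 8.85 on the A16 arrays (1388698_at). The Tumor arrays all lay above the A16 arrays, with a log2 difference of 0.64 ± 0.12, or 1.56-fold (adjusted p = 0.00936, limma), under the 2-fold limit. Without Tumor replicate 2 the adjusted p was 0.0771. By PLIER the difference was 0.85.

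Among 26 other matricellular genes, 22 were measured, of which 3 were called higher, 6 lower and 13 not called, with a median log2 difference of 0.01. Over all genes, 775 of 14217 were called higher and 774 lower. Spp1, which encodes osteopontin, a secreted ligand of integrins and CD44, read 12.30, 12.10 and 12.11 on the Tumor arrays, against 6.31, 6.64 and 6.26 on the A16 arrays. Its log2 difference of 5.79 (7.18 by PLIER) was the largest of the list, and Tgfbi (1.68) and Igfbp7 (1.98) were the other 2 that rose. Ccn2, which encodes connective tissue growth factor, read 10.09, 10.12 and 10.31 on the Tumor arrays, against 13.35, 13.41 and 13.37 on the A16 arrays (log2 difference -3.17). Its relative Ccn5 differed by -3.10 (-4.31 by PLIER) and Thbs3, a thrombospondin of bone and cartilage, by -2.45. All 3 were called lower.

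Among 27 further genes of the provisional matrix and of hyaluronan turnover, 23 were measured, with 3 called higher, 2 lower and 18 not called, and a median of 0.03. The share called over all genes was 10.9% in either direction. Fgg, the gamma chain of fibrinogen, read 10.86, 10.89 and 10.88 on the Tumor arrays, against 6.10, 6.34 and 5.81 on the A16 arrays (log2 difference 4.86). The other chains of fibrinogen were not called, with -0.22 for Fga and 0.02 for Fgb. Their brightest probe sets were dim, at percentiles 16.1 (Fga) and 21.2 (Fgb) of all probe sets. Lyve1, a hyaluronan receptor of lymphatic vessels and some macrophages, averaged 7.69 in Tumor cells and 4.09 in A16 cells (log2 difference 3.60). Its second probe set was also called higher (1.68). Cemip, a hyaluronan-degrading protein, differed by 1.36 (2.50 by PLIER) and was called higher. Hapln1, the link protein that fixes versican to hyaluronan, was called lower by all 3 of its probe sets (-1.69 for the brightest). Tnfaip6, a hyaluronan-binding protein of inflammation, was called lower by its brightest probe set (-1.77). Its other probe set, dim at percentile 8.91 of all probe sets, differed by 0.05 and was not called. Ugdh, the enzyme that makes a sugar precursor of hyaluronan, differed by 0.80, which passed the adjusted p (0.00398, limma) at under 2-fold.

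Of 20 receptors for these proteins, 18 were measured, with 1 called higher, 1 lower and 16 not called, and a median of 0.10. By comparison, 10.9% of all genes were called in either direction. Sdc1, the syndecan-1 core protein, read 13.34, 13.32 and 13.42 on the Tumor arrays, against 12.17, 12.34 and 12.30 on the A16 arrays (log2 difference 1.10). Tlr4, an innate immune receptor that also answers to tenascin-C and to hyaluronan fragments, differed by -1.11 and was called lower. By their brightest probe sets, the hyaluronan receptor gene Cd44 differed by 0.40, Itgb1, the beta subunit of many integrins, by 0.02 and Itga5, the alpha subunit of a fibronectin receptor, by -0.89 (adjusted p = 0.0666, limma), and none of them was called. The second probe sets of Cd44 and Itgb1 lay lower on all Tumor arrays and passed the adjusted p at under 2-fold. The difference was -0.55 for that of Cd44 (adjusted p = 0.0201, limma), opposite in sign to the brightest, and -0.77 for that of Itgb1 (adjusted p = 0.0104, limma). A dimmer probe set of the integrin gene Itgb5 was called higher (1.44, adjusted p = 0.00129, limma). The brightest Itgb5 probe set (0.36) and the remaining one (0.36) were not called.

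Of 18 proteases that cleave matrix proteins of this kind, 16 were measured, with 5 called higher, 1 lower and 10 not called, and a median of 0.19. Among all genes, 5.45% were called higher and 5.44% lower. Mmp3, stromelysin-1, read 12.17, 12.09 and 12.13 on the Tumor arrays, against 5.61, 5.71 and 4.96 on the A16 arrays, a log2 difference of 6.82. Plat, tissue plasminogen activator, differed by 3.56 and Htra1, a secreted serine protease, by 2.04, and both were called higher. Mmp2 (1.17) and Adamts1 (1.05), which cleaves versican, were the other 2 that rose. Mmp14, a membrane-bound collagenase, was called lower by its brightest probe set (-1.66), and its other probe set was not called (-0.86).

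**Figure D4:**
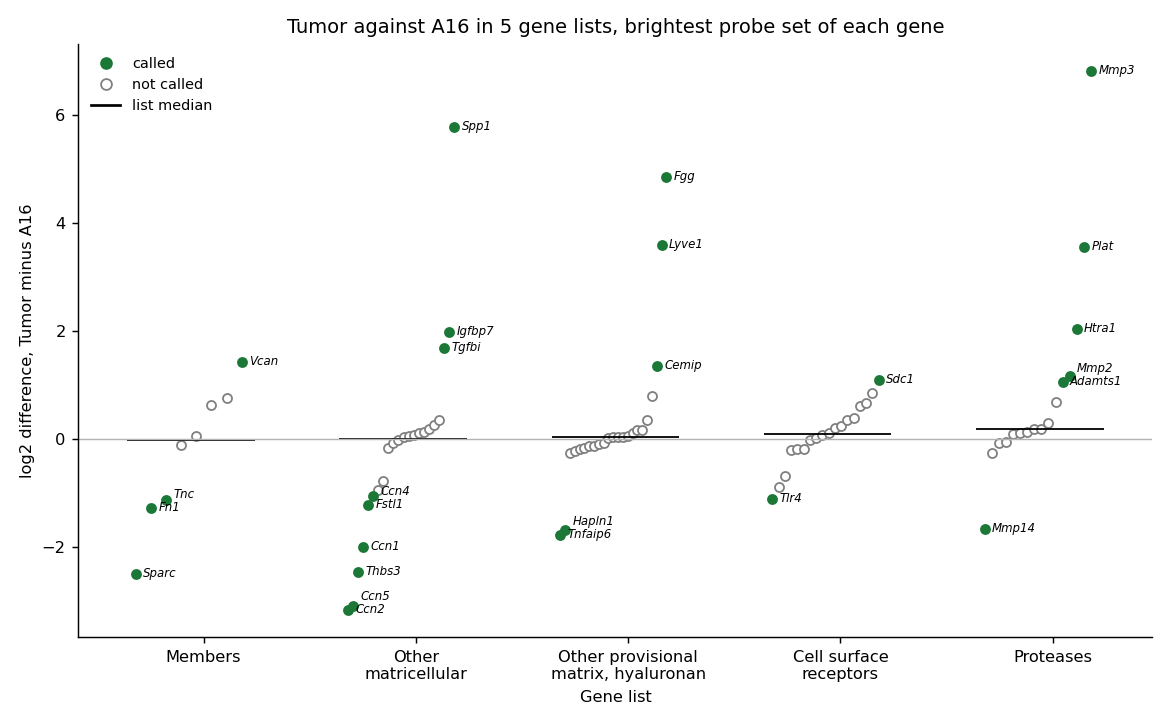
Log2 difference, Tumor minus A16 (vertical axis), of each gene's brightest probe set in the 8 members and 4 wider gene lists (horizontal axis), with called genes filled and named and a line at each list's median. Called genes lie on both sides of 0 in each list, and the medians of the 5 lists lie between -0.02 and 0.19.

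Markers of cell types were read beside these results, where 5.45% of all genes were called higher and 5.44% lower. Of 14 fibroblast markers, 4 were called lower in Tumor cells (Col1a1, Col1a2, Thy1 and Mfap5), and the summed level of the list, as log2, was 15.63 to 15.67 on the Tumor arrays and 16.22 to 16.37 on the A16 arrays. Of 12 macrophage markers, 2 were called higher (Csf1r, with 3.14, and Cd68, with 1.07), and their summed level was 10.01 to 10.07 on the Tumor arrays and 9.15 to 9.30 on the A16 arrays. Ptprc, the common leukocyte antigen, averaged 5.06 in Tumor cells and 5.13 in A16 cells, at percentile 20.3 of all probe sets. Adgre1, which encodes the macrophage antigen F4/80, averaged 4.11 in Tumor cells and 3.97 in A16 cells, at percentile 0.773. The probes are for rat RNA, and how far mouse RNA of host cells binds them was not tested. Among markers of other cell types, Krt8 of epithelium was called higher and Acta2 of smooth muscle lower. Of 25 markers of endothelium, skeletal muscle, adipocytes and lymphocytes, limma called 0 by RMA, with 5 at an adjusted p and 8 at an unadjusted p under 0.05 at under 2-fold, and 3 were called by PLIER. At any fold, 34.0% of all genes passed the adjusted p and 6229 of 14217 the unadjusted p, and PLIER called 13.9%. The part of cell composition in the members' results was not tested.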

How the data were processed

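Total RNA of Tumor and A16 cells was labelled with biotin and hybridised to Affymetrix rat arrays. The methods describe background adjustment of the scans and normalisation with Avadis. RMA and PLIER are the summaries named by the submitters' processing notes, and their versions were not given in the sources used. The authors deposited linear array intensity values for both, of which log2 was taken here. The 12 records are 6 arrays, each summarised in both ways, and the records of an array were never counted as separate samples. Array medians lay between 98 and 100 by RMA and between 99.6 and 106 by PLIER, whose lowest value was 16 on every array.

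After 57 control probe sets were left out, 31042 were tested, of which the platform annotation gave 1 symbol to 20826, several to 436 and none to 9780. A gene with several probe sets was represented by the one with the highest mean log2 RMA value (14217 genes). Technical replicate 2 has no biological number in the labels and was averaged with biological replicate 1. The labels do not say whether replicates were grown or taken separately, and p-values therefore reflect no more than the spread among these arrays, which may be technical, and the number of arrays limits precision. Tumor was compared with A16 with lmFit and eBayes of limma 3.58.1 (R 4.3.3) in a two-sided test, p being adjusted over all probe sets by Benjamini-Hochberg, and a call needed an adjusted p under 0.05 and at least 2-fold. The fit was tested on simulated data drawn as independent samples, which cannot show whether the replicates here were independent. Alternatives changed the summary, PLIER offset, normalization, dim filter, use of technical replicate 2, replicate block, variance model, probe set rule and test, and left out each replicate in turn.

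The members and lists were chosen with earlier results of these data known. All members were named, up to 4 called genes of each wider list by size, and the 3 genes nearest to Sparc. Igfbp7, Tgfbi, Cemip, Mmp2, Adamts1, Ugdh, Fga, Fgb, Cd44, Itgb1, Itgb5 and Itga5 were named outside that rule after their values were seen, as were the markers. Gene chromosomes and promoter windows (5 of 8 members matched) are from RefSeq, GRCr8. A planned description of protein motifs was not made here.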

Additional observations from a re-analysis of the deposited data

How the results depend on the processing

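By their brightest probe sets, Has2 and Ecm1 kept their direction under all 16 alternatives, and Fn1, Sparc, Tnc and Vcan kept theirs too. These 4 lost their calls only by an equal-variance t-test after Benjamini-Hochberg adjustment (Fn1 -1.27, adjusted p = 0.0975, Sparc -2.50, adjusted p = 0.137, Tnc -1.13, adjusted p = 0.102, and Vcan 1.43, adjusted p = 0.101). That test called 0 members higher and 0 lower, and 4 probe sets higher and 8 lower, against 1709 higher and 1985 lower by limma. Unadjusted, at the study's threshold, it called 1 member higher and 3 lower, and 1607 probe sets higher and 1493 lower. By PLIER, and by PLIER with an offset of 1, 3 members were called higher. The offset of 1 called 3113 probe sets higher. Thbs2 differed by 1.78 by PLIER and 2.29 with the offset of 1, by -0.0070 with technical replicate 2 as a sample of its own and by -0.033 with it averaged with biological replicate 2, and by -0.047 to 0.18 when each replicate was left out. Postn differed by 1.42 by PLIER and 1.70 with the offset of 1, and by -0.21 to 0.0089 when each replicate was left out. Leaving out each replicate left 1 member called higher and 3 lower, with 1651 to 1830 probe sets called higher and 1684 to 2502 lower. Samples of the groups share only a number (r = 0.121 between deviations of the replicates numbered 1). The replicate block gave 1715 probe sets higher and 2035 lower and changed no member's call. With 2 replicates per group, small differences may go undetected. The dimmest Vcan probe set differed by 0.56 by RMA, 0.95 by PLIER and 2.83 with the offset of 1.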
